A study of Mus musculus with 10 samples.

Results

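Cytochrome P450 family 2 is a large group of oxidizing enzymes of the mouse liver, and its genes carry the symbol Cyp2 followed by a subfamily letter and a gene number. Members were taken as every row of the expression table whose gene symbol has that form, with pseudogene symbols (-ps) left out. The rule gave 48 members among 47729 genes, in 13 subfamilies. Of these, 33 had a mean of at least 0.5 FPKM over all libraries and were tested. FPKM is the number of sequenced fragments scaled to transcript length and library size, so levels can be set side by side between genes. Another 4 members (Cyp2c55, Cyp2d12, Cyp2j8 and Cyp2s1) had reads below that mean, and 11 were listed at 0 in every library.

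The samples were livers of female Mus musculus. The knockout (KO) group lacked Etnppl in the whole body, and the other group was wild type (WT) at that gene, with 5 samples in each. Etnppl encodes an enzyme that breaks down phosphoethanolamine. All animals ate chow for a first period of 8 weeks and a diet with 45% of its energy as fat (HFD) for the next 10 weeks. The labels name no strain, no age at sampling and no deleted part of the gene. Since no lean or male group was analysed here, each level below belongs to females on the fatty diet. The labels number the samples but name no individual animals, so the p-values measure only the spread between these samples.

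Low values of short single-transcript genes fell on steps that place the depth at 21300000 to 28400000 fragments per library. Etnppl lay between 27.57 and 56.55 FPKM in WT and between 7.36 and 10.19 FPKM in KO, so every library matched its genotype label. The highest Etnppl value was that of WT2. The 6 hepatocyte markers (Alb, Apoa1, Ttr, Ahsg, Serpina1a and Apob) summed to 57578.44 to 69581.32 FPKM in WT and 64656.80 to 76090.79 FPKM in KO, and the labelled tissue therefore had its defining transcripts. The 3 proximal tubule markers of the kidney, an organ that also expresses Cyp2 genes, summed to at most 0.03 FPKM in any library. Pancreatic acinar markers summed to 54.05 FPKM in KO3 and to no more than 3.14 FPKM in any WT library. WT2 stood apart within the family. It was the lowest of all 10 libraries in 17 of the 33 members tested, and its family total was 10501.66 FPKM, against 12120.34 to 14723.99 FPKM in the other libraries. Within its own genotype WT2 was the lowest in 19 members, and KO4 was likewise the lowest KO library in 19. KO4 also had the lowest KO family total, 12120.34 FPKM, so the family counts are given without KO4 as well. For the family counts, and for those of the 22 members described by a fixed rule whose fold change moved by more than 1.5 times without WT2, the value without it is given too.

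P450 enzymes of this family sit in the endoplasmic reticulum, hold a heme group and insert an oxygen atom into their substrate, with electrons delivered by P450 oxidoreductase (Por) and cytochrome b5. Most substrates are drugs, pollutants, steroids, bile acids or polyunsaturated fatty acids. In the liver many members are made mainly in the hepatocytes around the central vein. Several are set by sex through the pattern of growth hormone pulses, and several are induced by foreign compounds through the nuclear receptors CAR and PXR.

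Most of the family lies in 4 gene clusters (GRCm38, from GENCODE). A cluster on chromosome 7 holds 13 members of the a, b, f, g, s and t subfamilies between positions 25802475 and 27158668. The Cyp2c cluster on chromosome 19 holds 14 genes between 39007019 and 40187333, with Cyp2c44 apart at 44005022 to 44029208. The 8 Cyp2d genes lie on chromosome 15 between 82370527 and 82794294, and the 8 Cyp2j genes on chromosome 4 between 96027534 and 96664154. Cyp2e1, Cyp2r1, Cyp2u1 and Cyp2w1 stand alone. Cluster neighbours are often near copies of each other, and their transcripts share long stretches.

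Cyp2a4 and Cyp2a5 are the closest pair of the family. Their coding sequences are 98.45% identical, with 23 differences in 1482 bases and a longest identical run of 216 bases. They are shown because Cyp2a4 had the largest and Cyp2a5 one of the smaller differences between genotypes. The first pair of lines gives 60 bases of coding exon 2 on the plus strand of chr7 (GRCm38, Cyp2a4 at chr7:26307666-26307725 and Cyp2a5 at chr7:26835811-26835870), where capitals mark the bases that differ. This window was chosen for having the most differences, 3, of any 60 coding bases within a single exon, so it is not typical.
Cyp2a4: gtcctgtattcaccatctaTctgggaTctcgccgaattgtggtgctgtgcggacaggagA
Cyp2a5: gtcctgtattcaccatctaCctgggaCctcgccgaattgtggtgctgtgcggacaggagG
The next pair gives the 250 bases before the RefSeq start (GRCm38.p6, plus strand, Cyp2a4 at chr7:26306942-26307191 and Cyp2a5 at chr7:26835089-26835338). Capitals mark 4 mismatched bases and 1 unpaired base in each window, the first base of Cyp2a4 and the last of Cyp2a5.
Cyp2a4: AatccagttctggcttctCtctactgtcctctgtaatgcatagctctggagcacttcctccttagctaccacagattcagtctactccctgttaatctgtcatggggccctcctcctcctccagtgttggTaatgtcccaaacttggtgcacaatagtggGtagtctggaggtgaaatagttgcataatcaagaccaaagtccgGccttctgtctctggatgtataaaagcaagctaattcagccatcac
Cyp2a5: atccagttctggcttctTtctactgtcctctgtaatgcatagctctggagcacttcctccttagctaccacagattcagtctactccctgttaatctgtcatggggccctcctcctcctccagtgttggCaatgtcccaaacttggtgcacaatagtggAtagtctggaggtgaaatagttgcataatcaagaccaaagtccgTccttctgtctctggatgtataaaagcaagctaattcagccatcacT
Both windows hold the letters CAAAGTCC, which HNF4 can bind, and TATAAA, the TATA box. Cyp2b9 and Cyp2b13 are a second pair of neighbours, shown because their promoters are still closer and both genes were abundant in both genotypes. Their 250-base windows (GRCm38.p6, plus strand, Cyp2b9 at chr7:26173159-26173408 and Cyp2b13 at chr7:26061245-26061494) differ at the 2 bases in capitals.
Cyp2b9: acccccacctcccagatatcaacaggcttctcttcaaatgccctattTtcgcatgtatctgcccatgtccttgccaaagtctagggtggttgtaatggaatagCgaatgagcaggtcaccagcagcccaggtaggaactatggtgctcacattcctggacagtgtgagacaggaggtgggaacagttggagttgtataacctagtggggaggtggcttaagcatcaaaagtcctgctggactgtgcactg
Cyp2b13: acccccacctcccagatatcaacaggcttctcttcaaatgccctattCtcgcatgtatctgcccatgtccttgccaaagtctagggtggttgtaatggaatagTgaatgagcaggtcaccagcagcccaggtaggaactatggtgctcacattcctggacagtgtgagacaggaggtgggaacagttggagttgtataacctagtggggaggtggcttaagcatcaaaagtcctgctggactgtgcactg

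Family levels ran from traces to some of the highest values of the table, as the plot of levels by library shows. Cyp2e1 alone had a mean above 1000 FPKM and ranked 18 among all genes of the table by mean FPKM. Another 16 members had means of 100 to 1000 FPKM, 9 had 10 to 100 FPKM and 7 had 0.5 to 10 FPKM. The members listed at 0 throughout were Cyp2b19, Cyp2b23, Cyp2c65, Cyp2c66, Cyp2d34, Cyp2j7, Cyp2j11, Cyp2j12, Cyp2j13, Cyp2t4 and Cyp2w1. The highest single-library values of the 4 members below the 0.5 FPKM mean were 0.33 FPKM for Cyp2c55, 0.46 for Cyp2s1, 0.10 for Cyp2d12 and 0.11 for Cyp2j8.

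**Figure D1:**
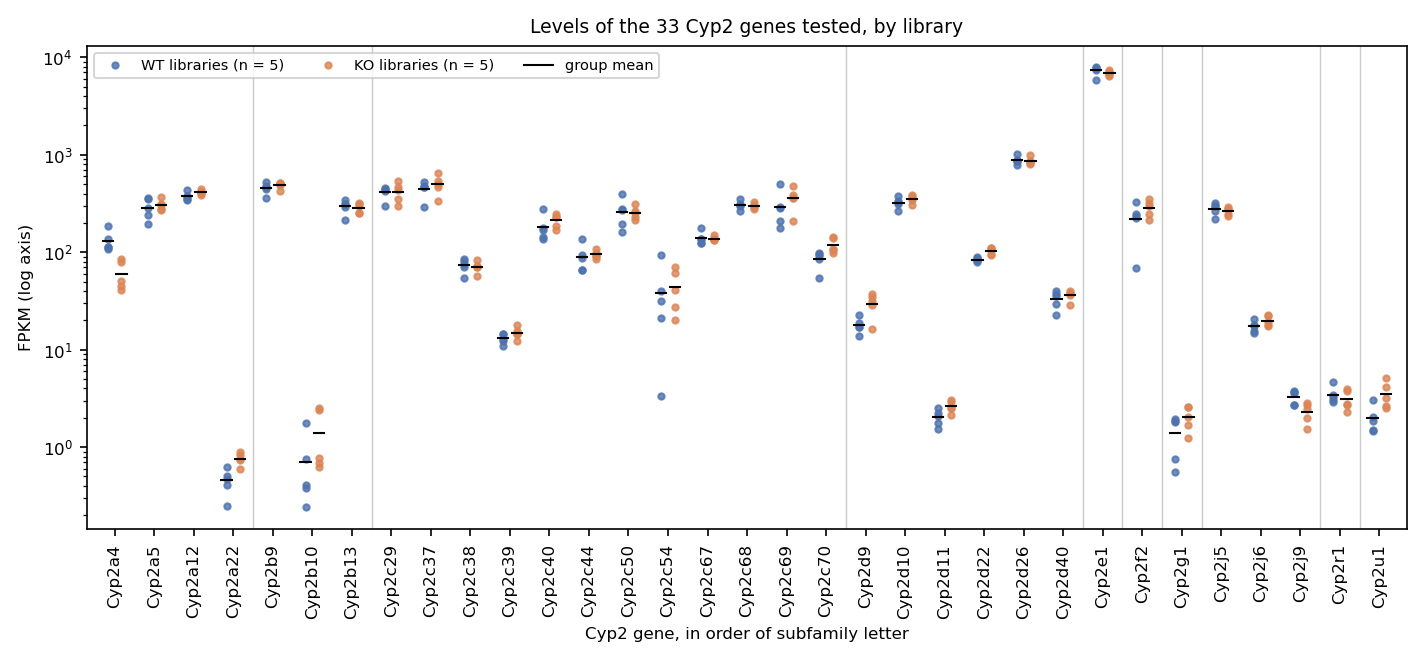
FPKM (log axis) of the 33 Cyp2 genes tested, in order of subfamily letter; points are the 5 WT and 5 KO libraries and dashes the group means. Cyp2e1 lies at 5870.73 FPKM or more in every library, and Cyp2a4 is a gene whose KO points all lie below its WT points.

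No member passed the genome-wide test of KO against WT (limma with Benjamini-Hochberg adjustment over 12395 genes, threshold 0.05). The lowest adjusted p in the family was 0.12, for Cyp2a4, and 8 genes (0.0645%) passed in the whole table, 4 in each direction (0.0323% each). In FPKM as deposited, the members lay mostly on the KO-higher side, opposite to the bulk of the transcriptome. Of the 33 tested, 23 (69.7%) had a log2 fold change above 0 and 10 below, with a median of 0.14. Without WT2 the counts were 21 and 12 with a median of 0.08, and with array weights they were also 21 and 12, with a median of 0.10. Without KO4 they were 26 and 7, with a median of 0.18. Across all genes tested, 34.9% were above 0 and 65.1% below, with a median of -0.05. The 6 hepatocyte markers had 5 above 0 and 1 below, with a median of 0.13, so the lean was not particular to Cyp2. At an unadjusted p under 0.05 there were 8 members (24.2%), 6 higher and 2 lower in KO, and without WT2 again 8, 5 higher and 3 lower. Without KO4 there were 8 higher and 2 lower. The same limit was met by 11.8% of all genes, 2.69% higher and 9.07% lower. The members are copies in clusters that share sequence and regulators, so they are not 33 independent observations.

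With median-of-ratios scaling in place of FPKM as deposited, 28 members were above 0 and 5 below, and 8 members with an unadjusted p under 0.05 were higher and 2 lower. That scaling also moved the split of all genes at this limit from 334 higher and 1124 lower to 669 higher and 599 lower. The median log2 fold change of all genes was then -0.001, so the bulk had no lean for the members to oppose. With quantile normalization 24 members were above 0 and 9 below, while all genes at this limit divided into 645 higher and 679 lower. The share of 34.9% above 0 is for FPKM as deposited. In bulk liver RNA, fewer cells of a type and less RNA per cell cannot be told apart.

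**Figure D2:**
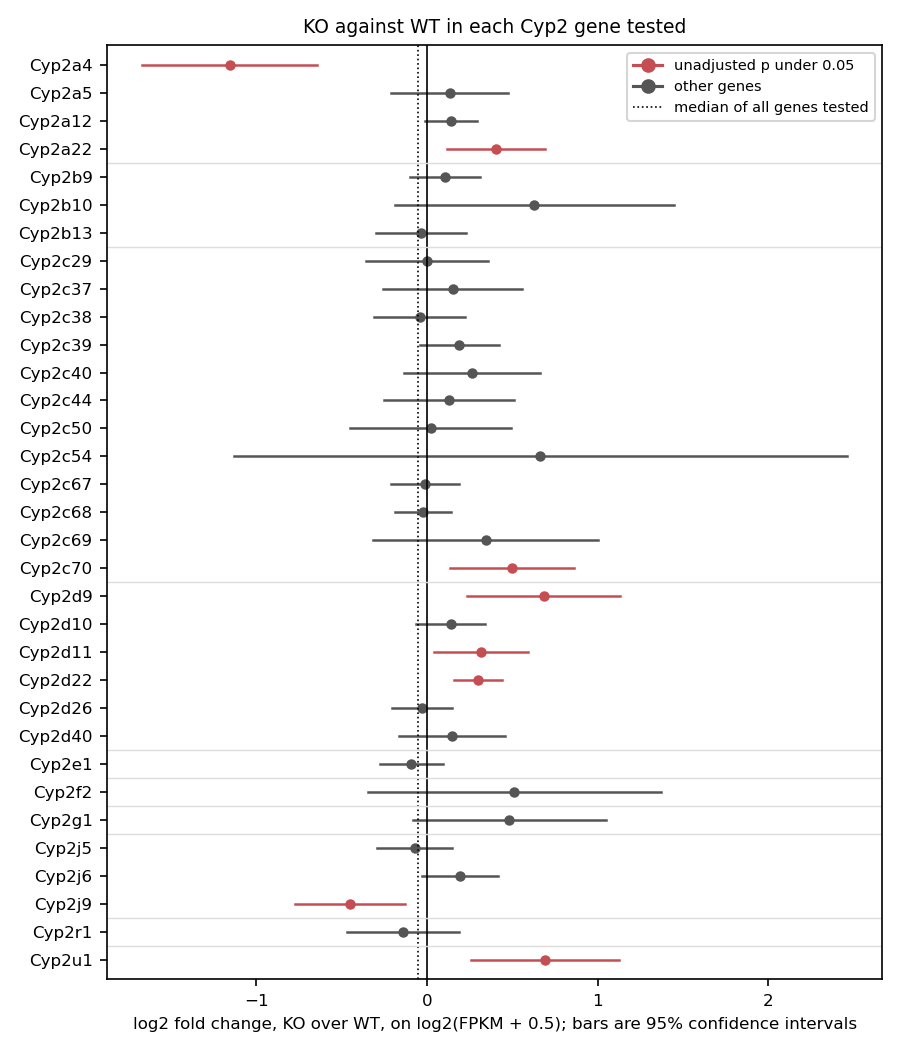
Log2 fold change, KO over WT, on the log2(FPKM + 0.5) scale for the 33 Cyp2 genes tested, with 95% confidence intervals as bars, the median of all genes as a dotted line and the 8 genes at an unadjusted p under 0.05 in red. Most points lie right of 0, Cyp2a4 lies farthest left at -1.16, and Cyp2c54 has the widest interval.

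In 3 members (9.09%) the KO and WT values did not overlap: Cyp2c70 and Cyp2d22, higher in KO, and Cyp2a4, lower in KO. The background was 2.79% of all genes tested, 0.581% higher and 2.21% lower. The 8 members with the lowest p are drawn library by library on the plot of those genes, and each is described below with its subfamily.

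**Figure D3:**
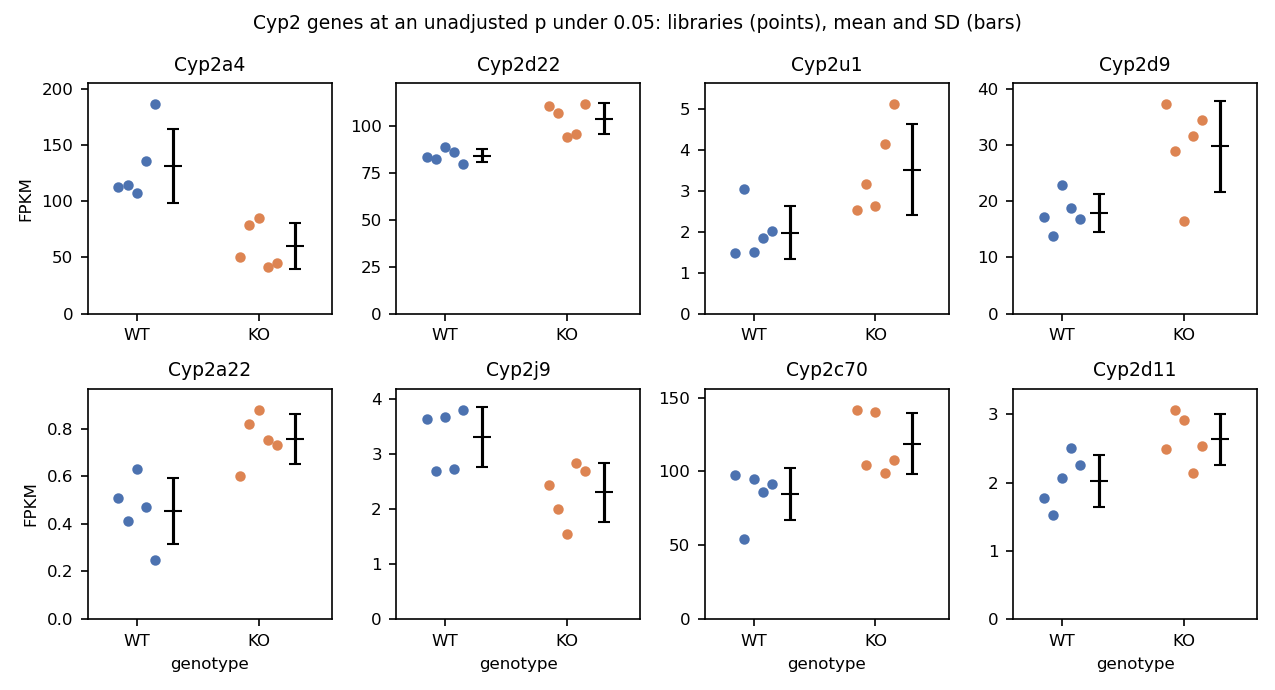
FPKM in each library (points, in order of replicate number within a genotype) with mean and SD (bars) for the 8 Cyp2 genes at an unadjusted p under 0.05, 5 libraries per genotype; each axis starts at 0. Cyp2a4, Cyp2d22 and Cyp2c70 show no overlap between genotypes, and the other 5 genes do.

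The Cyp2a subfamily held the widest contrast between close relatives: the KO mean of Cyp2a4 was 45.7% of the WT mean, while Cyp2a5 was at 108%. Cyp2a4 (ENSMUSG00000074254, plus strand, 26307169 to 26315088 on chromosome 7) encodes a steroid hydroxylase that is more abundant in livers of females than of males. It measured 112.94, 114.42, 107.29, 136.06 and 186.82 FPKM in WT1 to WT5 and 50.12, 78.84, 85.55, 41.35 and 44.59 FPKM in KO1 to KO5. The lowest WT value exceeded the highest KO value, and WT5 was the highest library. Means were 132 ± 32.8 and 60.1 ± 20.6 FPKM (SD, n = 5 each), a log2 fold change of -1.16 (95% CI -1.67 to -0.65, limma unadjusted p = 0.00046, adjusted p = 0.12). Over all 22 alternatives it ran from -1.30 to -1.02, with an unadjusted p of at most 0.00526 and an adjusted p of 0.106 to 0.45.

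Cyp2a5 (ENSMUSG00000005547, plus strand, 26835305 to 26843548) encodes the coumarin and nicotine hydroxylase of mouse liver. It measured 194.98, 242.09, 348.19, 281.46 and 360.03 FPKM in WT1 to WT5 and 315.69, 367.81, 280.95, 268.34 and 302.45 FPKM in KO1 to KO5. The KO values lay within a narrower range than the WT values and overlapped them. Its log2 fold change was 0.13 (95% CI -0.21 to 0.48, limma adjusted p = 0.776). That value rests on single libraries: it was 0.01 without WT1, 0.08 without WT2 and 0.23 without WT5. The sum of both genes was 417 ± 92.1 FPKM in WT and 367 ± 50.1 FPKM in KO (SD, n = 5 each), with overlapping ranges. Cyp2a4 made up 31.8 ± 4.95% of that sum in WT and 16.2 ± 4.44% in KO. The shares came close to each other in WT3, at 23.6%, and KO3, at 23.3%, which were the lowest WT and the highest KO share.

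**Figure D4:**
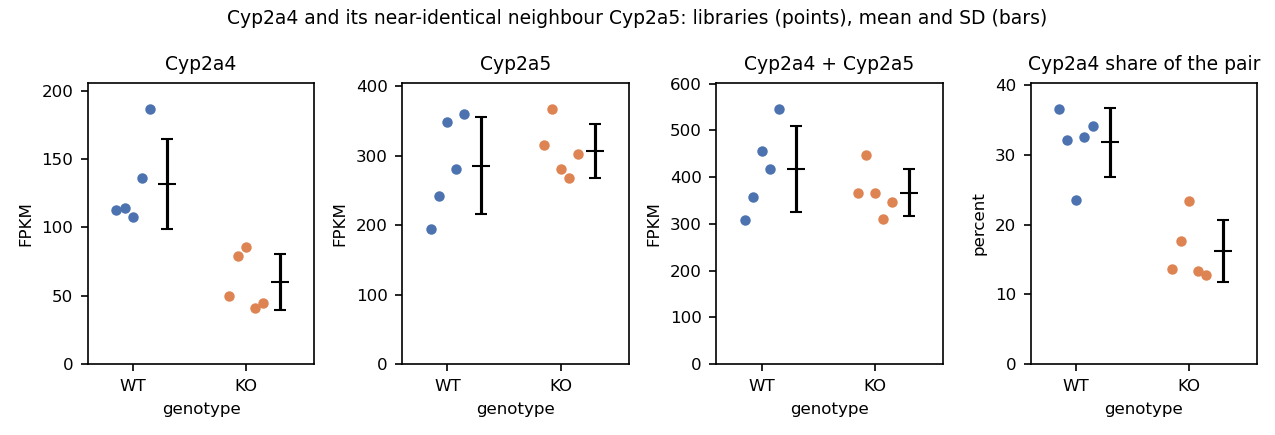
Cyp2a4, Cyp2a5, their sum (all in FPKM) and the share of Cyp2a4 in the sum (percent), as libraries (points) with mean and SD (bars), 5 per genotype, on axes that start at 0. The Cyp2a4 share lies at 23.6 to 36.7% in WT and at 12.8 to 23.3% in KO, while the sums overlap.

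Of the 50-base stretches of the Cyp2a4 transcript, 38.0% occur also in another gene, and 40.8% of those of Cyp2a5. No source used here says how fragments that match both genes were divided, so the split between the pair is less certain than its sum. The Cyp2a4 exons also overlap 61 bases of Gm42375 on the opposite strand, and the strand setting of the counting is not given.

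The other Cyp2a genes were Cyp2a12 and Cyp2a22, which share 96.95% of their coding bases but lay at opposite ends of the range of levels. Cyp2a12, which hydroxylates steroids and bile acids, measured 346.37, 349.17, 367.32, 431.94 and 378.45 FPKM in WT1 to WT5 and 445.86, 384.82, 400.56, 414.52 and 416.37 FPKM in KO1 to KO5. All KO values but KO1 lay within the WT range, and the log2 fold change was 0.14 (limma adjusted p = 0.455). Cyp2a22 measured 0.51, 0.41, 0.63, 0.47 and 0.25 FPKM in WT1 to WT5 and 0.60, 0.82, 0.88, 0.75 and 0.73 FPKM in KO1 to KO5. Only KO1 fell under the highest WT value, WT3. Its log2 fold change was 0.41 (95% CI 0.12 to 0.69, limma unadjusted p = 0.00914, adjusted p = 0.24). Its values are near the filter, and 25.7% of its 50-base stretches occur in other genes.

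The Cyp2b subfamily consisted of 2 abundant genes, 1 at trace level and 2 at 0. Cyp2b9 and Cyp2b13 are female-biased genes of mouse liver. Cyp2b9 measured 447.87, 363.58, 466.77, 525.91 and 482.97 FPKM in WT1 to WT5 and 488.29, 502.52, 516.04, 422.68 and 515.84 FPKM in KO1 to KO5. Cyp2b13, whose promoter window differs from that of Cyp2b9 at the 2 bases printed above, measured 290.07, 212.88, 345.82, 314.79 and 315.65 FPKM in WT1 to WT5 and 313.24, 298.04, 254.33, 250.66 and 316.56 FPKM in KO1 to KO5. In both genes WT2 was the lowest library and the genotypes overlapped. Log2 fold changes were 0.10 (95% CI -0.10 to 0.31, limma adjusted p = 0.715) for Cyp2b9 and -0.03 (95% CI -0.30 to 0.23, limma adjusted p = 0.939) for Cyp2b13, and the second turned positive, to 0.02, with median-of-ratios scaling. Without WT2 they were 0.02 for Cyp2b9 and -0.15 for Cyp2b13. The intervals reach 1.24-fold higher in KO for Cyp2b9 and 1.23-fold lower in KO for Cyp2b13.

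Cyp2b10 is the gene most used as a readout of CAR in mouse liver. It measured 0.38, 0.41, 1.77, 0.24 and 0.75 FPKM in WT1 to WT5 and 2.38, 0.78, 2.53, 0.63 and 0.68 FPKM in KO1 to KO5. KO1 and KO3 lay above every WT library, and the other 3 KO libraries lay among the WT values. This gave a log2 fold change of 0.63 (95% CI -0.19 to 1.45, limma adjusted p = 0.541). Cyp2b10 was thus a trace transcript beside Cyp2b9 and Cyp2b13 in every library.

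The Cyp2c subfamily was the largest, with 12 of 15 genes tested. Many of its members oxidize arachidonic acid to epoxides or hydroxy acids, and they supplied 2338 ± 494 FPKM in WT and 2520 ± 382 FPKM in KO (SD, n = 5 each). The gene with the lowest p was Cyp2c70, which converts chenodeoxycholic acid to the muricholic acids of rodent bile. Cyp2c70 (ENSMUSG00000060613, minus strand of chromosome 19, 40153353 to 40187333) measured 97.41, 54.01, 94.95, 86.16 and 91.67 FPKM in WT1 to WT5 and 141.96, 104.57, 140.58, 98.75 and 108.03 FPKM in KO1 to KO5. The lowest KO value was just above the highest WT value, and WT2 was far below the other WT libraries. The log2 fold change was 0.50 (95% CI 0.13 to 0.86, limma unadjusted p = 0.0115, adjusted p = 0.257), and without WT2 it was 0.34. None of its 50-base stretches occur in another gene.

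Among the abundant Cyp2c genes, Cyp2c37 had the highest mean and Cyp2c29 the next. Both are pericentral genes that respond to CAR. Cyp2c37 measured 464.27, 294.18, 477.99, 530.14 and 464.22 FPKM in WT1 to WT5 and 644.27, 500.34, 542.68, 335.28 and 461.63 FPKM in KO1 to KO5. Its log2 fold change was 0.15 (95% CI -0.26 to 0.56, limma adjusted p = 0.792), and without WT2 it was 0.01, while without KO4 it was 0.28. Cyp2c29 measured 458.37, 295.18, 441.57, 422.64 and 438.52 FPKM in WT1 to WT5 and 532.34, 433.31, 465.17, 296.58 and 348.02 FPKM in KO1 to KO5. WT2 and KO4 were the lowest library of their genotype in both genes. The log2 fold change of Cyp2c29 was 0.00 (95% CI -0.36 to 0.36, limma adjusted p = 1). Leaving out WT2 took it to -0.12.

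Cyp2c40, a female-biased gene whose enzyme makes hydroxy acids from arachidonic acid, measured 177.89, 142.42, 170.91, 277.64 and 137.00 FPKM in WT1 to WT5 and 247.00, 229.29, 231.75, 168.44 and 186.94 FPKM in KO1 to KO5. WT4 was above every KO library, and the other 4 WT libraries were below KO1, KO2, KO3 and KO5. A log2 fold change of 0.26 resulted (95% CI -0.13 to 0.66, limma adjusted p = 0.602). Without WT4 it was 0.43, with a limma unadjusted p of 0.0047 and an adjusted p of 0.273, the lowest that any alternative gave. Of the 50-base stretches of Cyp2c40, 72.1% occur in other genes.

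The other 8 Cyp2c genes tested had log2 fold changes between -0.04 and 0.66, and none had an unadjusted p under 0.05. Cyp2c68 and Cyp2c67 had the narrowest intervals, -0.19 to 0.14 and -0.21 to 0.19. Cyp2c54, a gene inducible by CAR and PXR ligands, varied most in WT livers. It measured 39.83, 31.67, 20.90, 94.64 and 3.35 FPKM in WT1 to WT5 and 69.71, 40.71, 27.46, 60.80 and 19.95 FPKM in KO1 to KO5. WT5 was the lowest and WT4 the highest of all libraries, so the interval of its log2 fold change of 0.66 ran from -1.13 to 2.46. Its neighbour Cyp2c50 was also highest in WT4, at 398.74 FPKM. Cyp2c54 was described after its values were seen.

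Of the 6 Cyp2d genes tested, 5 had a KO mean above the WT mean, and 3 of them had an unadjusted p under 0.05. Across all genes tested, 34.9% had a log2 fold change above 0, and 2.69% were higher at that limit. Cyp2d9, Cyp2d10 and Cyp2d11 share 92.46% to 94.71% of their coding bases, so they are not separate counts. Cyp2d22, a mouse gene often set beside the human drug-metabolizing CYP2D6, was the steadiest. Cyp2d22 (ENSMUSG00000061740, minus strand of chromosome 15, 82370527 to 82380260) measured 83.61, 82.46, 88.85, 86.32 and 79.58 FPKM in WT1 to WT5 and 110.60, 106.98, 93.99, 95.94 and 111.69 FPKM in KO1 to KO5. Every KO library was above every WT library, and the WT libraries had the smallest relative spread of the family, with a coefficient of variation of 4.24%. Means were 84.2 ± 3.56 and 104 ± 8.32 FPKM (SD, n = 5 each). The log2 fold change of 0.30 (95% CI 0.16 to 0.44, limma unadjusted p = 0.00057, adjusted p = 0.126) was small but narrowly bounded. It ran from 0.27 to 0.35 over the alternatives, with adjusted p-values of 0.0906 to 0.414.

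Cyp2d9 encodes a testosterone hydroxylase that marks male mouse liver. Cyp2d9 (ENSMUSG00000068086, plus strand of chromosome 15, 82433437 to 82456845) measured 17.23, 13.75, 22.88, 18.83 and 16.88 FPKM in WT1 to WT5 and 37.28, 28.96, 16.48, 31.59 and 34.35 FPKM in KO1 to KO5. Of the KO libraries, 4 lay above all WT libraries, and KO3 lay among them. Means were 17.9 ± 3.33 and 29.7 ± 8.03 FPKM (SD, n = 5 each), with a log2 fold change of 0.68 (95% CI 0.23 to 1.13, limma unadjusted p = 0.00656, adjusted p = 0.226). Without KO3 it was 0.88 with an adjusted p of 0.0494, and over all alternatives the adjusted p was 0.0494 to 0.45. KO3 is also the library with the pancreatic acinar markers, and their part in the result was not tested. Of the 50-base stretches of Cyp2d9, 29.0% occur in other genes, and its exons share 186 bases with Gm46501 on the same strand.

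Cyp2d11 shares 93.32% of its coding bases with Cyp2d9 and 94.71% with Cyp2d10, its closest member, which averaged 339 FPKM over all libraries. Cyp2d11 measured 1.77, 1.53, 2.06, 2.5 and 2.26 FPKM in WT1 to WT5 and 2.49, 3.07, 2.92, 2.14 and 2.54 FPKM in KO1 to KO5. KO1 and KO4 lay inside the WT range, and KO2 and KO3 were the highest libraries. A log2 fold change of 0.32 was fitted (95% CI 0.04 to 0.59, limma unadjusted p = 0.0274, adjusted p = 0.339). In 5 of the 22 alternatives, the fit without WT2 among them, its unadjusted p was above 0.05. Since 37.2% of its 50-base stretches occur in other genes, a value near 2 FPKM is uncertain.

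Cyp2d26 was the most abundant Cyp2d gene. It measured 870.07, 780.69, 869.93, 892.55 and 1017.79 FPKM in WT1 to WT5 and 851.87, 870.49, 825.06, 799.71 and 991.85 FPKM in KO1 to KO5. The ranges of the genotypes coincided almost fully. Its log2 fold change was -0.03 (95% CI -0.20 to 0.14, limma adjusted p = 0.918), which became 0.03 with median-of-ratios scaling and -0.07 without WT2. Cyp2d10 and Cyp2d40 had log2 fold changes of 0.14 and 0.15.

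Cyp2e1, the pericentral enzyme that oxidizes ethanol, acetone and acetaminophen, supplied more than all other members together. Cyp2e1 (ENSMUSG00000025479, plus strand of chromosome 7, 140763739 to 140774987) measured 7486.52, 5870.73, 7841.47, 7868.81 and 7790.38 FPKM in WT1 to WT5 and 7418.48, 6661.21, 6495.73, 6835.85 and 7012.44 FPKM in KO1 to KO5. All KO libraries were below 4 of the WT libraries, and WT2 was below all KO libraries. Means were 7372 ± 853 and 6885 ± 355 FPKM (SD, n = 5 each), with a log2 fold change of -0.09 (95% CI -0.28 to 0.09, limma unadjusted p = 0.305, adjusted p = 0.72). Without WT2 it was -0.17 (limma unadjusted p = 0.0138, adjusted p = 0.278). The direction was the same in all 22 alternatives, between -0.17 and -0.03, with adjusted p-values of 0.278 to 0.949. Cyp2e1 was 56.2% of the family total in WT and 53.3% in KO.

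Cyp2f2 is known for the oxidation of naphthalene, and in liver it is a periportal gene. It measured 244.35, 226.38, 236.62, 328.46 and 68.21 FPKM in WT1 to WT5 and 295.75, 353.03, 213.23, 317.87 and 246.02 FPKM in KO1 to KO5. WT5 was far below the other 9 libraries, which overlapped. Its log2 fold change of 0.51 (95% CI -0.35 to 1.37, limma adjusted p = 0.647) became 0.13 without WT5. Its exons overlap 274 bases of Gm15883 on the opposite strand, which was at 1.07 FPKM or less. The 9 periportal markers fixed for comparison (Cps1, Ass1, Asl, Pck1, Sds, Hal, Gls2, Cdh1 and Arg1) summed to 4440.83 to 6958.45 FPKM in WT and 5935.37 to 8658.95 FPKM in KO. Of them 8 were higher in KO, 6 at an unadjusted p under 0.05. The shares of all genes tested were 34.9% higher and 2.69% higher at that limit. The part of these markers in the Cyp2f2 value was not tested. Cyp2g1, a gene best known from the olfactory mucosa, measured 0.55, 1.79, 0.75, 1.95 and 1.86 FPKM in WT1 to WT5 and 2.60, 2.04, 1.70, 1.24 and 2.57 FPKM in KO1 to KO5. WT1 and WT3 were lowest, and the log2 fold change was 0.48 (95% CI -0.08 to 1.05, limma adjusted p = 0.487).

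The Cyp2j genes encode epoxygenases of arachidonic acid. Cyp2j5 carried nearly all of their signal. It measured 295.37, 216.80, 298.04, 321.57 and 267.48 FPKM in WT1 to WT5 and 280.54, 245.65, 289.03, 232.92 and 274.68 FPKM in KO1 to KO5. The KO values lay within the WT range, and the log2 fold change was -0.07 (95% CI -0.30 to 0.15, limma adjusted p = 0.82), or -0.16 without WT2. Cyp2j9 had a lower KO mean. Cyp2j9 (ENSMUSG00000015224, minus strand of chromosome 4, 96568429 to 96591578) measured 3.62, 2.69, 3.66, 2.72 and 3.8 FPKM in WT1 to WT5 and 2.44, 1.99, 1.54, 2.83 and 2.69 FPKM in KO1 to KO5. WT1, WT3 and WT5 were above all KO libraries, while WT2 and WT4 lay at the upper end of the KO range. The log2 fold change was -0.45 (95% CI -0.77 to -0.13, limma unadjusted p = 0.0099, adjusted p = 0.246), and none of its 50-base stretches occur in another gene. Cyp2j6, the third tested, had a log2 fold change of 0.19 (limma adjusted p = 0.476).

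Cyp2u1 and Cyp2r1 are members with single-gene subfamilies that act on endogenous lipids. Cyp2u1, which hydroxylates long-chain fatty acids, lies on chromosome 3 (ENSMUSG00000027983, minus strand, 131288441 to 131303227), the chromosome of the deleted Etnppl and 650920 bases from it. It measured 1.47, 3.06, 1.51, 1.84 and 2.02 FPKM in WT1 to WT5 and 2.54, 3.16, 2.62, 4.16 and 5.13 FPKM in KO1 to KO5. All KO libraries were above 4 of the WT libraries, and WT2 lay within the KO range, so here WT2 was the highest and not the lowest WT library. Means were 1.98 ± 0.646 and 3.52 ± 1.11 FPKM (SD, n = 5 each), with a log2 fold change of 0.69 (95% CI 0.26 to 1.12, limma unadjusted p = 0.00441, adjusted p = 0.2). Without WT2 it was 0.83. Linkage to the deleted locus and the loss of Etnppl cannot be told apart for this gene in this design. Its exons overlap 548 bases of 4930534D22Rik on the opposite strand, which was at 0.04 FPKM or less in each library.

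Cyp2r1, the vitamin D hydroxylase of the liver, measured 3.06, 2.92, 3.28, 4.61 and 3.45 FPKM in WT1 to WT5 and 3.8, 2.7, 2.8, 2.3 and 3.99 FPKM in KO1 to KO5. WT4 was the highest library and the rest overlapped. Its log2 fold change was -0.14 (95% CI -0.47 to 0.19, limma adjusted p = 0.753).

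Summed by subfamily, the group means of the Cyp2a, b, c, d, e, f and j genes differed by less than the larger SD between libraries. The whole family gave 13131 ± 1579 FPKM in WT and 12938 ± 711 FPKM in KO (SD, n = 5 each), or 1.79 ± 0.237% and 1.78 ± 0.0852% of all FPKM in the table. Cyp2e1 came first, followed by the Cyp2c and Cyp2d sums. The Cyp2d sum was 1347 ± 116 FPKM in WT and 1395 ± 109 FPKM in KO. The Cyp2a sum was 792 ± 110 FPKM in WT against 780 ± 42.4 FPKM in KO, with Cyp2a4 at 16.5% of it in WT and 7.66% in KO. The Cyp2b sum was 754 ± 106 FPKM in WT against 777 ± 61.4 FPKM in KO, and the Cyp2j sum 301 ± 42.4 and 287 ± 25.3 FPKM. These sums are values with no test, since they add up chosen members. Over members, the median coefficient of variation was 19.0% among WT and 14.0% among KO libraries.

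**Figure D5:**
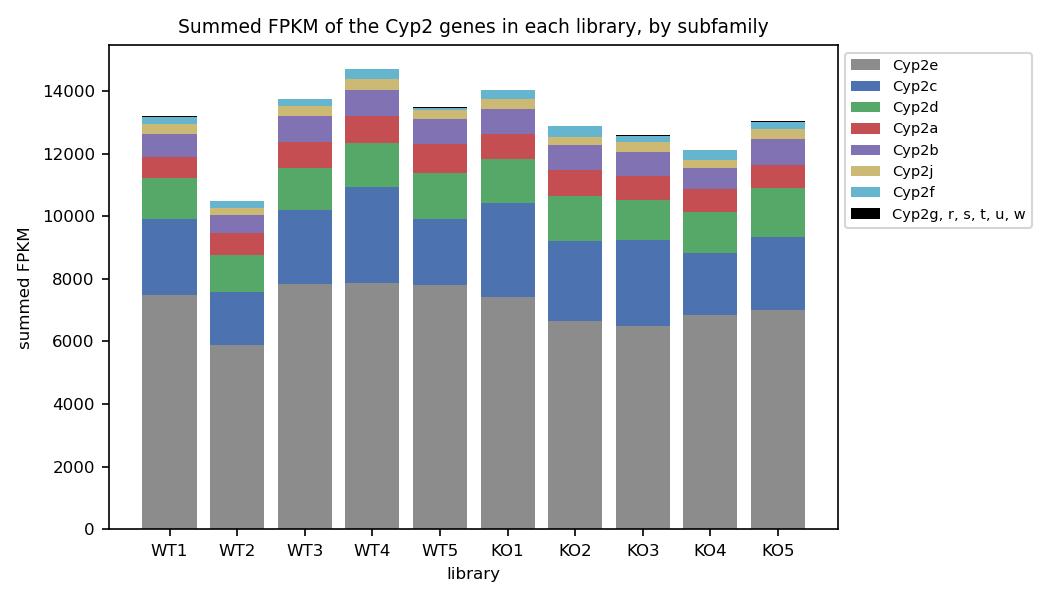
Summed FPKM of the Cyp2 genes in each of the 10 libraries, stacked by subfamily, on an axis that starts at 0. WT2 has the lowest bar, at 10501.66 FPKM, and WT4 the highest, at 14723.99 FPKM, with Cyp2e1 the largest part of each bar.

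Members were also grouped by what is known of their control. Of 7 female-biased members (Cyp2a4, Cyp2b9, Cyp2b10, Cyp2b13, Cyp2c39, Cyp2c40 and Cyp2c69), 5 had a KO mean on the log scale above WT and 2 below, and Cyp2a4 alone had an unadjusted p under 0.05. Cyp2b13, 1 of those below, moved above with median-of-ratios scaling. Both male-biased members, Cyp2d9 and Cyp2u1, were higher in KO at an unadjusted p under 0.05. Among all genes tested, 34.9% had a log2 fold change above 0, and 2.69% were higher and 9.07% lower at that limit. Cyp2u1 lies 650920 bases from the deleted Etnppl, so linkage and the loss of Etnppl cannot be told apart for it. All 5 tested members inducible through CAR or PXR had log2 fold changes above 0, between 0.00 and 0.66, with Cyp2c29 at 0.00 and on either side of it in the alternatives, and none had an unadjusted p under 0.05. Of 6 pericentral members, 5 were above 0 and Cyp2e1 below, again with none under that limit. Cyp2c29, Cyp2c37, Cyp2c50 and Cyp2c54 are in both of these lists, so the counts are not separate. WT2 was the lowest WT library for Cyp2c29, Cyp2c37 and Cyp2c50. Without it, the log2 fold change was -0.12 for Cyp2c29 and 0.01 for Cyp2c37. Cyp2c50, at 0.02 with all libraries, also moved below 0 without WT2, so both counts depend on WT2. The 9 pericentral markers outside the family divided into 4 higher and 5 lower, with Slc1a2, Cyp1a2 and Glul higher at an unadjusted p under 0.05. No member of these lists passed the genome-wide threshold.

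Promoter windows (250 bases before to 50 after each RefSeq start, GRCm38.p6) were found for 40 of 48 members, in 42 windows. Each motif was searched on both strands, and the motif windows can overlap. The letters CAAAGTCC occurred in 9 member windows (21.4%) and in 1.42% of all 32851 promoters. The letters AGGTCA, which nuclear receptors can bind, occurred in 13 (31.0%) against 16.3% of all promoters, and the C/EBP letters TTGCNNAA also in 13, against 10.8%. TATAAA occurred in 21 member windows (50%) against 13.6%. The STAT5 letters TTCNNNGAA occurred in 2 (4.76%), those of Cyp2j11 and Cyp2j12, against 8.30% of all promoters. Neighbours with near-identical promoters are counted separately here. Cyp2a4 and Cyp2a5 held the same 4 motifs, with the C/EBP letters at -70 in Cyp2a4 and -71 in Cyp2a5 relative to the start. Cyp2c70 held CAAAGTCC at -64 and AGGTCA at -74.

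The genes that serve the P450 reaction were measured alongside. Higher and lower refer in these lists to FPKM as deposited, and median-of-ratios scaling moved the median log2 fold change of all genes from -0.05 to -0.00. Of 5 electron donors, Cyb5r3, which reduces cytochrome b5, had an unadjusted p under 0.05, with means of 100 ± 3.37 FPKM in WT and 115 ± 13.3 FPKM in KO (SD, n = 5 each). Por was at 239 ± 32.3 and 269 ± 57.4 FPKM (limma adjusted p = 0.752). Of 12 genes of heme synthesis and breakdown, 5 were higher and 7 lower. Ppox, an enzyme near the end of heme synthesis, had non-overlapping groups at 8.66 ± 0.618 FPKM (WT) and 10.5 ± 1.01 FPKM (KO), and so had Uros, at 16.5 ± 0.893 and 18.9 ± 1.2 FPKM. Non-overlap with KO higher was found in 0.581% of all genes tested. Alas1, the rate-limiting enzyme of heme synthesis, was lowest in WT2 like many members, at 107.59 FPKM, against 283.31 to 368.47 FPKM in the other WT libraries. None of these genes passed the threshold (lowest limma adjusted p = 0.228).

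Of 19 transcription factors that control Cyp2 genes, 7 were higher and 12 lower in KO, with a median log2 fold change of -0.10. Onecut1 averaged 7.37 ± 0.860 FPKM in WT against 5.30 ± 1.47 FPKM in KO, and the glucocorticoid receptor gene Nr3c1 at 17.2 ± 1.46 and 14.8 ± 1.54 FPKM. Ahr, the dioxin receptor, was at 10.4 ± 1.02 and 11.9 ± 1.13 FPKM. These 3 had an unadjusted p under 0.05, and the lowest limma adjusted p of the list was 0.261. In the growth hormone axis, 2 of 8 genes were higher and 6 lower. Socs2, a feedback inhibitor of growth hormone signalling, averaged 13.7 ± 4.96 FPKM in WT against 6.13 ± 2.06 FPKM in KO (log2 fold change -1.07, limma unadjusted p = 0.00973, adjusted p = 0.246). Bcl6, a repressor with male bias in mouse liver, was at 2.76 ± 0.612 and 4.50 ± 1.83 FPKM, and Stat5a at 5.96 ± 0.671 and 4.78 ± 0.815 FPKM.

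Sex-biased genes outside the family were mixed. Among 8 with a female bias, 3 had a KO mean above WT, 1 of them past the threshold, and 5 a KO mean below. Abcd2, a peroxisomal fatty acid transporter, had non-overlapping groups at 19.2 ± 2.38 FPKM (WT) and 13.9 ± 1.25 FPKM (KO) (limma adjusted p = 0.107). Of 9 male-biased genes 6 were tested, and 5 were higher. Susd4 had non-overlapping groups at 0.782 ± 0.294 and 2.09 ± 0.533 FPKM (limma adjusted p = 0.0729), while Mup20, a urinary protein gene, went the other way at 39.2 ± 10.5 and 22.4 ± 3.25 FPKM (limma adjusted p = 0.134). Among 12 other targets of CAR and PXR, 8 were higher and 4 lower, with Ces2a, a carboxylesterase, alone at an unadjusted p under 0.05. Of 52 genes in the other P450 families 32 were tested. They divided into 18 higher and 14 lower, with none past the threshold. An unadjusted p under 0.05 was found for 7 of the higher and 1 of the lower genes. Across all genes tested, 2.69% were higher and 9.07% lower at that limit. Of the 33 Cyp2 members, 6 were higher and 2 lower, so this lean was not particular to Cyp2. The lowest p in that group was that of Cyp4a32, with 40.5 ± 2.41 FPKM in WT against 34.3 ± 1.82 FPKM in KO (limma adjusted p = 0.169).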

How the data were processed

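Poly(A) RNA of 5 KO and 5 WT livers was sequenced, 1 library per sample, per the labels. The authors deposited 1 table of FPKM for 47729 genes, rounded to 2 decimals. Its 2 unnamed empty columns were not used. STAR, RSEM, R 4.0.2, DESeq2, DESeq and the build mm10 come from the submitters' processing notes. The sources used here do not give their roles, the annotation or the strand setting. FPKM carry no counts, so log2(FPKM + 0.5) was tested for the 12395 genes that averaged 0.5 FPKM or more. It was fitted with limma 3.58.1 in R 4.3.3 (two-sided, with a trended and robust prior, and Benjamini-Hochberg adjustment at 0.05). Fold changes understate low genes. Depth was estimated from the steps of low values of transcripts of 350 to 1000 bases, taken as whole within 0.1 fragment.

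Groups follow the genotype labels. The members and lists were chosen with earlier results of these data known. Each member with an unadjusted p under 0.05 or non-overlapping groups, the most abundant member of each subfamily and 14 fixed members get every library's value. Up to 4 genes of lowest p are named per other list. Not every gene that this rule selects is reported here. As alternatives, 22 refits varied the pseudocount, filter, scaling, prior and weights, or used a replicate block, or left out 1 library. The test was checked on simulated data. Coordinates are from GENCODE M21 (GRCm38), promoters from RefSeq (GRCm38.p6), and identities from Biopython 1.88. Python 3.11.15 and matplotlib 3.10.9 drew the plots.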

Additional observations from a re-analysis of the deposited data

Results flagged for a closer look

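All 33 members tested and the subfamily sums were examined for a library far from the other 4 of its genotype, taken as a gap to its nearest neighbour above 0.71 of the group's range (Dixon's test for 5 samples). Of 88 groups, 6 met this, and chance alone gives about 1 in 20. In 4 members the library was WT2. It measured 295.18 FPKM for Cyp2c29, where the other WT libraries began at 422.64 FPKM. For Cyp2c37 it measured 294.18 FPKM, where the others began at 464.22 FPKM. For Cyp2c70 it measured 54.01 FPKM against at least 86.16 FPKM, and for Cyp2e1 5870.73 FPKM against at least 7486.52 FPKM. The Cyp2e sum is the same value, 5870.73 FPKM, since that subfamily has 1 gene. In Cyp2c67 the library was WT4, high at 178.58 FPKM, where the next WT library was at 137.67 FPKM. The 4 genes low in WT2 share that library, so they are not separate signs.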

How the results depend on the processing

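With 8 genes of the whole table past the threshold, the count was 0 with no filter on low values (of 47729 genes, 474 had an unadjusted limma p under 0.05 on the higher side and 1475 on the lower), 5 without trend or robust prior, 18 with array weights and 5 with the replicate number as a block. Leaving out 1 library at a time gave 4 to 18, the 18 without WT2. The count of members past the threshold was 0 to 1 with 1 library left out, the 1 being Cyp2d9 without KO3 (log2 fold change 0.88). Members at an unadjusted p under 0.05 numbered 7 to 15 with 1 library left out. The 15 came without WT4, with 13 higher and 2 lower. Cyp2a4, Cyp2c70, Cyp2d9, Cyp2d22, Cyp2j9 and Cyp2u1 had an unadjusted p under 0.05 in all 22 alternatives, and Cyp2a22 in the 21 that tested it. Of the 33 members, 23 were above 0, and this count was 28 with median-of-ratios scaling. Among the 22 members described by a fixed rule, 3 with values near 0 changed sign in some alternative. Cyp2b13 had a log2 fold change of 0.0219 with median-of-ratios scaling and -0.148 to 0.0267 with 1 library left out, above 0 without WT3, KO3 or KO4. Cyp2c29 was at -0.0875 with array weights and at -0.115 to 0.113 with 1 library left out, below 0 without WT2, KO1, KO2 or KO3. Cyp2d26 was at 0.0271 with median-of-ratios scaling and at -0.0783 to 0.0221 with 1 library left out, above 0 without WT5. The cause was not tested. Subfamily sums moved by less than 1 SD in every alternative run on them. Samples with the same replicate number deviated together with correlations of 0.12, -0.02, 0.07, 0.00 and 0.20 and did not all correlate best with their own number, so the numbers were not taken as pairs. With the block, 9 members had an unadjusted p under 0.05, 7 higher and 2 lower. FPKM rounded to 2 decimals and without counts limits what can be said of members under about 1 FPKM.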
